A study of Mus musculus with 8 samples.

Results

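The genes described here build and serve cilia, the hair-like organelles that line the conducting airways of the lung. They were 53 of the 19937 genes with a single symbol on the array, taken by name: every gene whose symbol starts with Dnah, Dnaic, Dnali, Rsph or Tekt, or with Ift or Bbs and a digit, together with Foxj1, Ccdc39 and Ccdc40. Of these, 31 genes formed an axoneme class (Foxj1, Ccdc39, Ccdc40, dynein chains, radial spoke and tektin genes). The other 22 formed a transport class of 14 Ift and 8 Bbs genes. Each gene was read from its brightest probe set.

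The study measured RNA from the lungs of mice that received mepenzolate, a muscarinic receptor antagonist, or vehicle. There were 4 groups of 2 arrays each: mepenzolate at 7 h, vehicle at 7 h, mepenzolate at 25 h and vehicle at 25 h. Mepenzolate was given into the trachea in PBS, under chloral hydrate anaesthesia at 500 mg/kg. The protocol text is the same for all 8 arrays and does not describe the vehicle dosing separately. The labels used here give no strain, sex, age or mepenzolate dose and no lung injury for these mice. They call the 2 arrays of a group replicates without saying that they came from separate animals, so the p-values below measure the spread between these arrays, which may be technical. By its design text the study asked how mepenzolate comes to reduce inflammatory responses and oxidative stress.

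Motile cilia beat because dynein arms, fixed in rows on the outer microtubule doublets of the axoneme, walk along the neighbouring doublet, while radial spokes and the central pair set the pattern of the strokes. Intraflagellar transport carries building blocks along the axoneme: the B complex moves them out to the tip and the A complex brings material back, and the BBSome is a cargo adaptor on these trains. Axonemal dyneins and spokes are made in multiciliated cells and in sperm, whereas transport proteins also serve the non-motile primary cilium that most cell types can form. In whole lung RNA, fewer ciliated cells and less RNA per cell cannot be told apart.

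Ciliary promoters are known for the X-box, the site of RFX transcription factors. RefSeq promoters on mouse GRCm38.p6, 250 bases before to 50 after the gene start, were found for 46 of the 53 genes. An X-box was searched on both strands as GTNNCC, then 0 to 3 bases of any kind, then GGNAAC. It was present in 5 of 19 transport genes (26.3%) and in 1 of 27 axoneme genes (3.7%), beside 2.68% of 27025 genes with a promoter. The transport genes were Bbs1, Bbs4, Bbs7, Ift22 and Ift57, and the axoneme gene was Tekt4. The short RFX word GTTGCC, which can lie inside an X-box, was in 8 of 19 transport (42.1%) and 8 of 27 axoneme promoters (29.6%), beside 14.1% of all. TGTTTAC, a forkhead word of the kind FOXJ1 can bind, was in 0 of 19 transport and 2 of 27 axoneme promoters (7.41%), beside 4.05% of all. These matches are letters in a window and not measured binding. Windows are shown for the X-boxes that lie before a gene start, so they hold only part of the contrast between the classes. The X-boxes of Bbs1 and Bbs4 begin at 2 and 24, past the gene start, and are not shown. Capitals mark each X-box, with 20 bases on either side, and each is written 5′ to 3′ on its gene's strand. Counted from the gene start, the X-boxes shown begin at -160 in Tekt4, at -121 in Bbs7, at -63 and -33 in Ift22 and at -87 and -60 in Ift57.

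Tekt4 promoter, chr17:25471410-25471463, plus strand: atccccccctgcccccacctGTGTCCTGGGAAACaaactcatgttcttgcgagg

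Bbs7 promoter, chr3:36613477-36613530, minus strand: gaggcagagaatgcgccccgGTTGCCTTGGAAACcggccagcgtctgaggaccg

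Ift22 promoter, chr5:136908067-136908149, plus strand: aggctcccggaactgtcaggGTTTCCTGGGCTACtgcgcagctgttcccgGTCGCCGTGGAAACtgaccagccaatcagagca

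Ift57 promoter, chr16:49699187-49699266, plus strand: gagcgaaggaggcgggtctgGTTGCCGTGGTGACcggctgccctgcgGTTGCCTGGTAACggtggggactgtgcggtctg

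Values are log2 RMA signals as the authors deposited them, so a difference of 1 is a factor of 2. Array medians lay between 6.70 and 6.77. The correlation between the 2 arrays of a group was lowest in mepenzolate lungs at 7 h (Pearson r = 0.988 across probe sets) and reached 0.993 in vehicle lungs at 25 h. The second mepenzolate array at 7 h held the lowest of the 8 values for 21% of the 14953 genes tested, close to the 22% of the second mepenzolate array at 25 h, so over all genes it was not alone in this. Many 7 h values of the cilium genes turned on it, so the class and heavy chain, Ift and Bbs family medians and most gene differences are given with and without it. Values without it rest on the first mepenzolate array at 7 h, which was unusual too. That first array held the highest of the 8 values for 18.9% of all genes tested. The next largest share was 13.6%, on the first mepenzolate array at 25 h. Of the cilium genes, 4 of 28 axoneme and 6 of 21 transport genes were highest on the first mepenzolate array at 7 h. Sftpc, the surfactant protein of alveolar type 2 cells, had 13.56 and 13.49 in mepenzolate and 13.55 and 13.52 in vehicle lungs at 7 h. Genes with a mean below log2 5.93, the 25th percentile of genes, were not tested. This left 28 axoneme and 21 transport genes. The 4 untested genes were Dnah7a (mean 5.42), Dnah14 (4.05), Tekt3 (5.53) and Bbs12 (5.85), of which Dnah14 and Bbs12 had the lowest signal of their classes. The nearest gene above the limit was Ift74, at a mean of 6.09, and the nearest below was Bbs12. Bbs12 had 5.93 and 5.76 in mepenzolate lungs at 7 h, against 5.76 and 5.81 in vehicle lungs, and Dnah14 had 4.08 and 4.06 in mepenzolate lungs, against 3.95 and 4.29 in vehicle lungs. Dnah7a had 5.80 and 4.95 in mepenzolate lungs, against 5.61 and 4.997 in vehicle lungs, and Tekt3 had 5.51 and 5.52 in mepenzolate lungs, against 5.43 and 5.63 in vehicle lungs. The groups overlapped for all 4 of these genes.

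At 7 h the axoneme genes had lower values in mepenzolate lungs than in vehicle lungs in 27 of 28 cases, with a median log2 difference of -0.17. The transport genes were lower in 18 of 21 cases, with a median of -0.090. Over all genes tested, 56.4% of differences were below 0 and the median was -0.013. None of these differences passed limma after Benjamini-Hochberg adjustment over all genes tested: 0 axoneme genes, 0 transport genes and 0 of 14953 genes (0%) were called. At an unadjusted p under 0.05 lower in mepenzolate lungs, there were 0 axoneme genes and 1 transport gene, beside 1.65% of all genes. The 2 mepenzolate arrays lay below both vehicle arrays for 5 of 28 axoneme and 5 of 21 transport genes, beside 15.5% of all genes, and above both for 0 axoneme and 2 transport genes, beside 8.26%. Without the second mepenzolate array the axoneme median was 0.017 and the transport median 0.056, so the lower class medians at 7 h rest on that array.

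**Figure D1:**
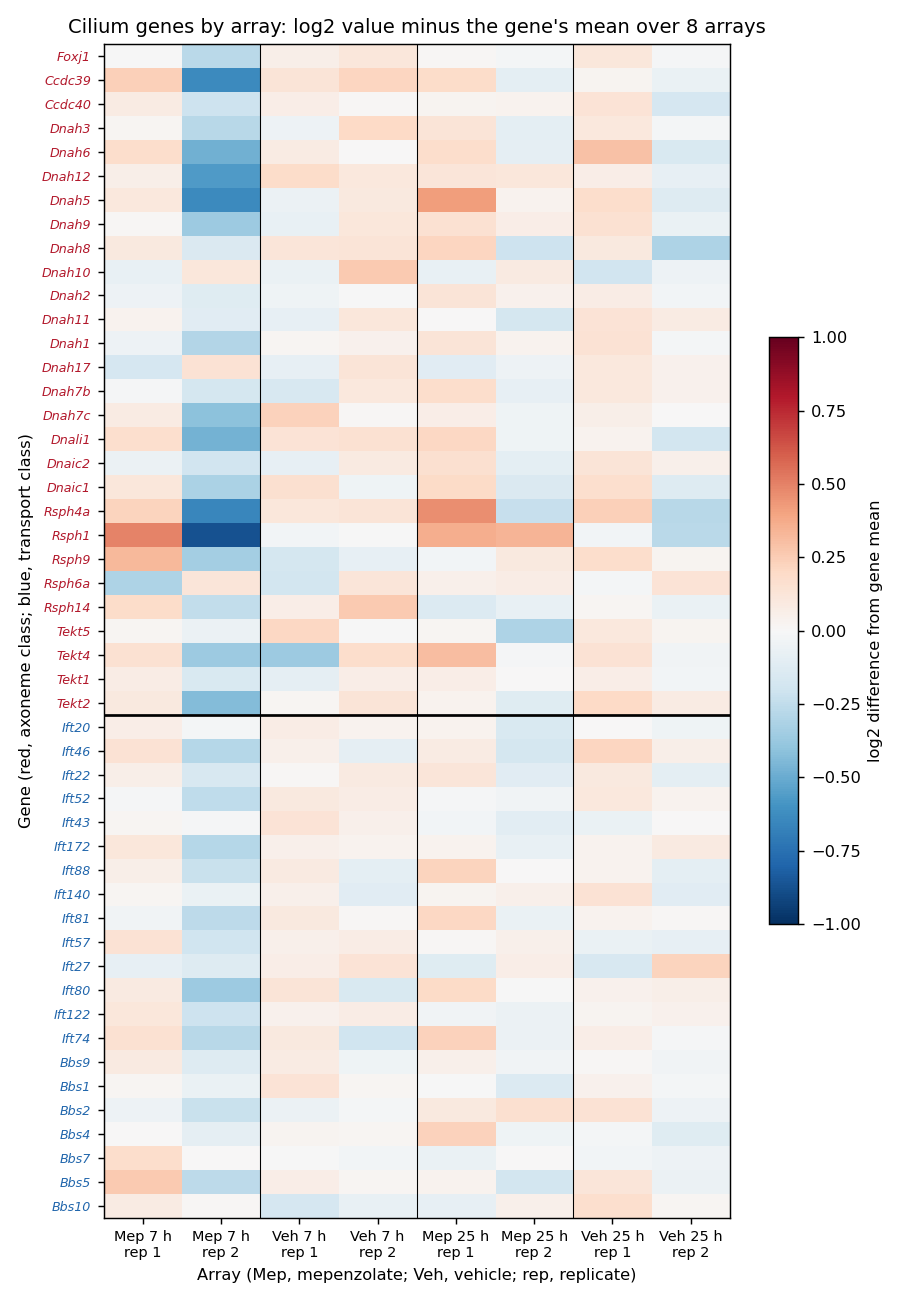
Rows are the 49 tested cilium genes and columns the 8 arrays. Colour is the log2 value minus the gene's mean over the 8 arrays. Most rows are blue in the second mepenzolate column at 7 h, where 21 of 28 axoneme and 13 of 21 transport genes had their lowest value, and Dnah10, Dnah17 and Rsph6a are red there.

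Foxj1, the transcription factor that switches on the motile cilium programme, had log2 signals of 8.09 and 7.82 in mepenzolate lungs at 7 h, against 8.15 and 8.21 in vehicle lungs. Both mepenzolate arrays lay below both vehicle arrays, and the difference was -0.22 ± 0.10 (SE), with a limma unadjusted p of 0.0579. Its 95% interval ran from -0.46 to 0.0096. Without the second mepenzolate array the difference was -0.094. At 25 h Foxj1 stood at 8.10 and 8.07 in mepenzolate and 8.21 and 8.08 in vehicle lungs, where the groups overlapped.

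CCDC39 and CCDC40 work together as the ruler that spaces dynein arms and spokes along the doublets. Ccdc39 had 7.42 and 6.54 in mepenzolate lungs at 7 h, against 7.31 and 7.40 in vehicle lungs (-0.37 ± 0.24). Its first mepenzolate array was the highest of the 8 and its second the lowest, and without the second the difference was 0.063. Ccdc40 had 7.31 and 7.01 in mepenzolate lungs, against 7.29 and 7.24 in vehicle lungs (-0.11 ± 0.13). Its second mepenzolate value was also the lowest of the 8, and the difference was 0.041 without it.

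The dynein heavy chains are the motors themselves. All 13 tested Dnah genes had a difference below 0 at 7 h, with a median of -0.19, and 9 of them had their lowest value on the second mepenzolate array. Without that array 9 of 13 were below 0, with a median of -0.025. Dnah12, of the inner arms, had 8.24 and 7.62 in mepenzolate lungs, against 8.37 and 8.29 in vehicle lungs, which did not overlap (-0.40 ± 0.18, limma unadjusted p = 0.0532). That was the largest difference of the class at 7 h, and it was -0.085 without the second mepenzolate array. Dnah1, also of the inner arms, had 6.84 and 6.60 in mepenzolate lungs, against 6.91 and 6.93 in vehicle lungs (-0.20 ± 0.10, or -0.081 without that array).

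DNAH5 and DNAH9 are heavy chains of the outer arms, which supply most of the beat's power. Dnah5 had 8.27 and 7.54 in mepenzolate lungs at 7 h, against 8.12 and 8.27 in vehicle lungs (-0.29 ± 0.23). Its first mepenzolate array was above one vehicle array and level with the other, and the difference was 0.082 without the second. Dnah9 had 7.75 and 7.38 in mepenzolate lungs, against 7.67 and 7.85 in vehicle lungs (-0.19 ± 0.14). Dnah11, an outer arm chain of the proximal cilium, had 7.13 and 6.99 in mepenzolate lungs, against 7.02 and 7.21 in vehicle lungs (-0.055 ± 0.10). The groups overlapped for all 3 outer arm genes, and without the second mepenzolate array Dnah9 differed by -0.0068 and Dnah11 by 0.016.

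Other heavy chains of the inner arms were also lowest on that second array. Dnah3 had 8.85 and 8.55 in mepenzolate lungs, against 8.78 and 9.03 in vehicle lungs (-0.20 ± 0.14), and Dnah6 had 8.48 and 7.82 in mepenzolate lungs, against 8.38 and 8.31 in vehicle lungs (-0.20 ± 0.22). Dnah7c stood at 6.32 and 5.82 in mepenzolate lungs, against 6.46 and 6.24 in vehicle lungs (-0.28 ± 0.16), and Dnah7b at 6.27 and 6.11 in mepenzolate lungs, against 6.13 and 6.39 in vehicle lungs. With that array left out, the differences were -0.054 for Dnah3, 0.13 for Dnah6, -0.036 for Dnah7c and 0.018 for Dnah7b. Dnah6 has 3 probe sets, and those not used here had 7 h differences of -0.070 and -0.075. On these the second minus the first mepenzolate array was -0.64 and -0.42. At 25 h they differed by 0.12 and 0.24, against -0.027 on the probe set used. Dnah7a, Dnah7b and Dnah7c are near-identical copies, so signal can cross between them and their separate values are uncertain. A pair of probe sets that carry all 3 Dnah7 symbols, and so belong to none of these genes alone, also had a lower second than first mepenzolate value, at 6.95 and 6.33 on one and 7.51 and 7.25 on the other. Vehicle lungs had 6.84 and 6.66 on the first of these probe sets and 7.69 and 7.46 on the second. Probe sets shared by Rsph3a and Rsph3b ran the other way in mepenzolate lungs, at 8.29 and 8.42 on one and 8.51 and 8.61 on another. For these, vehicle lungs had 8.62 and 8.29 on the former and 8.70 and 8.46 on the latter. The dim other probe set of Dnah7b, at a mean of 4.23, was higher on the second mepenzolate array by 0.34.

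For 4 heavy chains, Dnah8, Dnah10, Dnah11 and Dnah17, the lowest value lay on another array. Dnah8, known best from sperm flagella, had 7.58 and 7.34 in mepenzolate lungs, against 7.60 and 7.61 in vehicle lungs, and its lowest value lay on a vehicle array at 25 h. Dnah17, another outer arm chain known from sperm, had 6.17 and 6.49 in mepenzolate lungs, against 6.26 and 6.47 in vehicle lungs, so its second mepenzolate value was the highest of the 8. Dnah10, of the inner arms, had 7.12 and 7.31 in mepenzolate lungs, against 7.13 and 7.45 in vehicle lungs. Of the 5 probe sets of Dnah10, 3 were lower on the second than on the first mepenzolate array and 2 were higher, so its probe sets disagree. Dnah2, an inner arm chain whose lowest value was on the second mepenzolate array, had 7.12 and 7.05 in mepenzolate and 7.12 and 7.17 in vehicle lungs, which did not overlap. The 7 h differences were -0.15 for Dnah8, -0.035 for Dnah17, -0.077 for Dnah10 and -0.059 for Dnah2, and without the second mepenzolate array -0.025 for Dnah8, -0.19 for Dnah17, -0.17 for Dnah10 and -0.024 for Dnah2.

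Intermediate and light chains hold and tune the motors. Dnali1, the light intermediate chain of inner arms, had 8.72 and 8.08 in mepenzolate lungs at 7 h, against 8.70 and 8.71 in vehicle lungs (-0.30 ± 0.19). Dnaic1 had 7.29 and 6.86 in mepenzolate lungs, against 7.34 and 7.14 in vehicle lungs (-0.16 ± 0.18), and Dnaic2 had 7.53 and 7.40 in mepenzolate lungs, against 7.51 and 7.68 in vehicle lungs (-0.13 ± 0.11). Both encode intermediate chains of the outer arms. All 3 genes had their lowest value of the 8 arrays on the second mepenzolate array at 7 h, and without it Dnali1 differed by 0.018, Dnaic1 by 0.049 and Dnaic2 by -0.063.

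Rsph1, Rsph4a and Rsph9 encode parts of the spoke head, which touches the central pair. Rsph1 had 8.67 and 7.31 in mepenzolate lungs at 7 h, against 8.16 and 8.18 in vehicle lungs, so the 2 mepenzolate arrays were its highest and its lowest of all 8 (-0.17 ± 0.35). Rsph4a had 8.68 and 7.82 in mepenzolate lungs, against 8.58 and 8.59 in vehicle lungs (-0.33 ± 0.31). Rsph9 had 7.65 and 6.98 in mepenzolate lungs, against 7.15 and 7.24 in vehicle lungs (0.12 ± 0.19), and was the only tested axoneme gene with a difference above 0. Without the second mepenzolate array the differences were 0.51 for Rsph1, 0.10 for Rsph4a and 0.45 for Rsph9. Rsph6a, a spoke head gene of sperm, had its lowest value of the 8 on the first mepenzolate array, with 5.999 and 6.43 in mepenzolate lungs and 6.12 and 6.43 in vehicle lungs. Rsph14, the tested axoneme gene nearest the level limit, had 6.39 and 5.95 in mepenzolate and 6.27 and 6.46 in vehicle lungs (-0.19 ± 0.14). When that array was left out, Rsph14 differed by 0.025 and Rsph6a by -0.28, and 1 of the 5 spoke genes was below 0.

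Tektins are filaments that lie along the inside of the doublets. Tekt2 had 6.96 and 6.43 in mepenzolate lungs at 7 h, against 6.89 and 6.99 in vehicle lungs (-0.24 ± 0.16), and the difference was 0.023 without the second mepenzolate array. Tekt4, the axoneme gene with an X-box above, had 8.07 and 7.56 in mepenzolate lungs, against 7.56 and 8.10 in vehicle lungs (-0.0093 ± 0.22). For Tekt4 a vehicle array was as low as the second mepenzolate array. Tekt1 had 7.41 and 7.18 in mepenzolate lungs, against 7.25 and 7.41 in vehicle lungs. Tekt5, a sperm flagellum tektin, had 8.66 and 8.57 in mepenzolate lungs, against 8.84 and 8.63 in vehicle lungs, with its lowest value on a mepenzolate array at 25 h. Without the second mepenzolate array at 7 h Tekt4 differed by 0.24, Tekt1 by 0.082 and Tekt5 by -0.081.

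Of the B complex of intraflagellar transport, Ift52, a core subunit, had 8.38 and 8.14 in mepenzolate lungs at 7 h, against 8.49 and 8.47 in vehicle lungs. These did not overlap, and the difference was -0.22 ± 0.095, with a limma unadjusted p of 0.0468 and an adjusted p of 1.00. Ift52 was the single gene of the 49 with an unadjusted p under 0.05 in this comparison, and its difference was -0.10 without the second mepenzolate array. Ift81, which with IFT74 binds tubulin, had 7.42 and 7.20 in mepenzolate lungs, against 7.55 and 7.47 in vehicle lungs (-0.20 ± 0.11). Ift27, a small GTPase of the complex, had 7.32 and 7.27 in mepenzolate lungs, against 7.46 and 7.54 in vehicle lungs (-0.20 ± 0.13). Both mepenzolate arrays were below both vehicle arrays for Ift81 and Ift27. Their differences were -0.087 for Ift81 and -0.18 for Ift27 without the second mepenzolate array.

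The other B complex genes had differences closer to 0. Ift20, which also links the complex to the Golgi, had 10.53 and 10.44 in mepenzolate lungs, against 10.54 and 10.49 in vehicle lungs. Ift22, with 2 X-boxes in its promoter, had 8.84 and 8.62 in mepenzolate lungs, against 8.79 and 8.87 in vehicle lungs. Ift46 had 9.10 and 8.67 in mepenzolate lungs, against 9.01 and 8.86 in vehicle lungs (-0.052 ± 0.15). The groups overlapped for each of these 3. Ift88, whose loss stops cilium assembly in mice, had 7.70 and 7.42 in mepenzolate lungs, against 7.73 and 7.54 in vehicle lungs, and Ift57, the other B complex gene with X-boxes, had 7.59 and 7.25 in mepenzolate lungs, against 7.50 and 7.52 in vehicle lungs. Both had their lowest value on the second mepenzolate array. Ift172 at 8.01 and 7.61 and Ift80 at 7.44 and 6.98 in mepenzolate lungs did the same, against 7.95 and 7.93 for Ift172 and 7.48 and 7.20 for Ift80 in vehicle lungs. Ift74 had 6.24 and 5.81 in mepenzolate and 6.18 and 5.89 in vehicle lungs. Of the 14 Ift genes, 13 were below 0 at 7 h with both mepenzolate arrays (median -0.097) and 4 without the second (median 0.055). Without it Ift46 differed by 0.16, Ift74 by 0.20, Ift80 by 0.10 and Ift20 by 0.015.

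The A complex drives return transport. Ift43 had 8.04 and 8.01 in mepenzolate lungs, against 8.16 and 8.08 in vehicle lungs, which did not overlap (-0.094 ± 0.078). Ift122 had 7.40 and 7.07 in mepenzolate lungs, against 7.33 and 7.36 in vehicle lungs (-0.11 ± 0.11). Ift140 had 7.61 and 7.52 in mepenzolate lungs, against 7.64 and 7.47 in vehicle lungs (0.0074 ± 0.11). Only Ift122 of these 3 had its lowest value on the second mepenzolate array, and without it Ift122 differed by 0.056 and Ift43 by -0.080.

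Among Bbs genes, 5 of 7 tested had a difference below 0 at 7 h, with a median of -0.038, and 3 of 7 without the second mepenzolate array, with a median of 0.072. The BBSome subunit gene Bbs9 had 9.24 and 9.02 in mepenzolate lungs, against 9.23 and 9.11 in vehicle lungs, and Bbs5 had 7.16 and 6.64 in mepenzolate lungs, against 6.96 and 6.91 in vehicle lungs. For Bbs5 the 2 mepenzolate arrays were the highest and the lowest of the 8. Bbs7, a BBSome subunit with an X-box in its promoter, had 7.18 and 7.02 in mepenzolate lungs, against 7.01 and 6.98 in vehicle lungs (0.11 ± 0.084). Bbs10, whose product is a chaperonin-like factor that helps assemble the BBSome, had 6.53 and 6.45 in mepenzolate lungs, against 6.27 and 6.36 in vehicle lungs (0.17 ± 0.090). With the second mepenzolate array left out, Bbs5 differed by 0.22, Bbs7 by 0.19 and Bbs10 by 0.21. Bbs7 and Bbs10 were the 2 transport genes with both mepenzolate arrays above both vehicle arrays. The BBSome subunit gene Bbs4 had 7.02 and 6.93 in mepenzolate lungs, against 7.04 and 7.03 in vehicle lungs, which did not overlap (-0.063 ± 0.10, or -0.018 without that array). Bbs1 at 7.72 and 7.63 and Bbs2 at 7.58 and 7.40 in mepenzolate lungs stood against 7.84 and 7.72 for Bbs1 and 7.57 and 7.61 for Bbs2 in vehicle lungs.

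Set against each other, the axoneme and transport classes were low on the same array, the axoneme class farther so. Relative to each gene's mean over the 8 arrays, the median axoneme gene stood at 0.077 and -0.29 on the mepenzolate arrays at 7 h, against -0.0042 and 0.11 on the vehicle arrays. The median transport gene stood at 0.070 and -0.20 on the mepenzolate arrays, against 0.063 and 0.016 on the vehicle arrays. The first mepenzolate array was therefore within the range of the vehicle arrays for the axoneme class and just above it for the transport class. The axoneme median minus the transport median was 0.0064 and -0.091 on the mepenzolate arrays, against -0.067 and 0.093 on the vehicle arrays. On the first mepenzolate array this gap lay between those of the 2 vehicle arrays, and on the second it lay below both. At 25 h it was 0.095 and -0.0033 on the mepenzolate arrays, against 0.066 and -0.016 on the vehicle arrays.

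**Figure D2:**
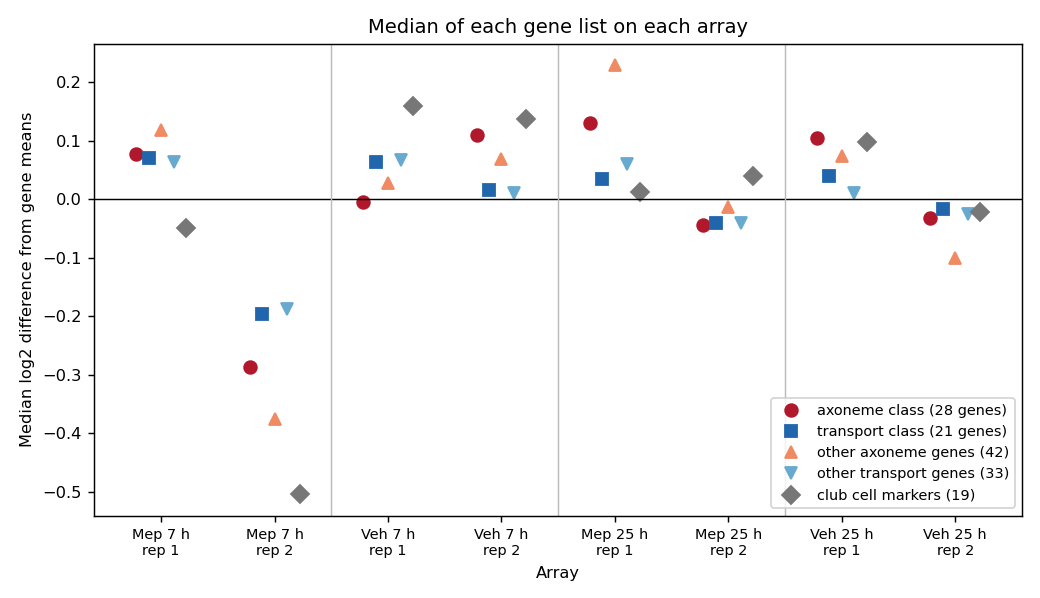
Each point is the median, over the genes of a list, of the log2 value minus the gene's mean over the 8 arrays; columns are arrays. On the second mepenzolate array at 7 h the axoneme class stood at -0.29, the transport class at -0.20 and the club cell markers at -0.50, and on the other 7 arrays both classes lay between -0.044 and 0.13.

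The second minus the first mepenzolate array at 7 h was below 0 for 25 of 28 axoneme genes (median -0.34) and for 21 of 21 transport genes (median -0.22). Over all genes tested it was below 0 for 61.8% (median -0.052). In vehicle lungs at 7 h the same difference had a median of 0.088 for axoneme and -0.046 for transport genes. The second array was thus lower for nearly all genes of both classes in mepenzolate lungs, and for 6 of 28 axoneme and 15 of 21 transport genes in vehicle lungs. At 25 h the second array was also the lower one for 22 of 28 axoneme genes in mepenzolate lungs and 26 of 28 in vehicle lungs, by medians of -0.13 in mepenzolate and -0.12 in vehicle lungs. It was the lower one for 15 of 21 transport genes in mepenzolate and 16 of 21 in vehicle lungs, beside 56.3% of all genes in mepenzolate and 48.6% in vehicle lungs. At 7 h the share of all genes in vehicle lungs was 51.2%.

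**Figure D3:**
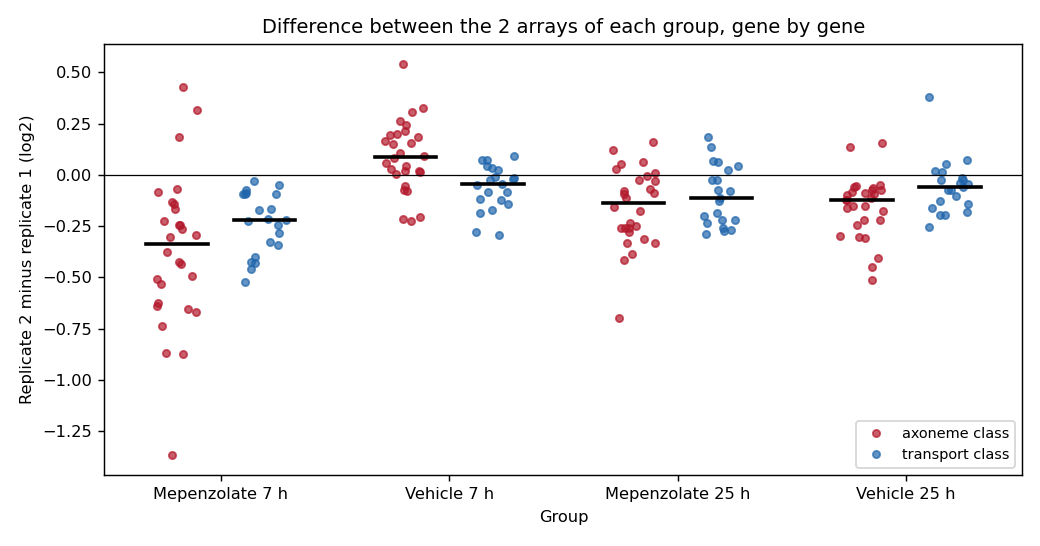
Each point is one gene's log2 value on the second array of a group minus that on the first, and bars are medians. Mepenzolate at 7 h has the widest scatter, with medians of -0.34 for axoneme and -0.22 for transport genes.

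The range of a gene over the 8 arrays had a median of 0.51 for axoneme genes and 0.35 for transport genes, beside 0.31 for all genes tested. Over the 7 arrays without the second mepenzolate array at 7 h, it was 0.33 for axoneme, 0.26 for transport and 0.29 for all genes. That array was left out because many of these genes were lowest on it, so their ranges had to narrow without it. The second mepenzolate array held the lowest value for 4 of 5 radial spoke, 3 of 3 intermediate and light chain, 9 of 13 heavy chain, 2 of 4 tektin, 10 of 14 Ift and 3 of 7 Bbs genes.

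With the first mepenzolate array left out instead, the 7 h medians were -0.34 for axoneme and -0.22 for transport genes, and 25 of 28 and 19 of 21 differences were below 0, beside 61.3% of all genes. At an unadjusted p under 0.05, 14 axoneme and 7 transport genes were then lower in mepenzolate lungs, beside 4.88% of all genes, and 0 passed adjustment. With the second left out, 13 of 28 axoneme and 7 of 21 transport differences were below 0, beside 48.5% of all genes. Each of these fits compares 1 mepenzolate array with 2 vehicle arrays and takes its spread from the other groups. Leaving out the first vehicle array gave medians of -0.21 for axoneme and -0.044 for transport genes, and leaving out the second gave -0.14 and -0.099.

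**Figure D4:**
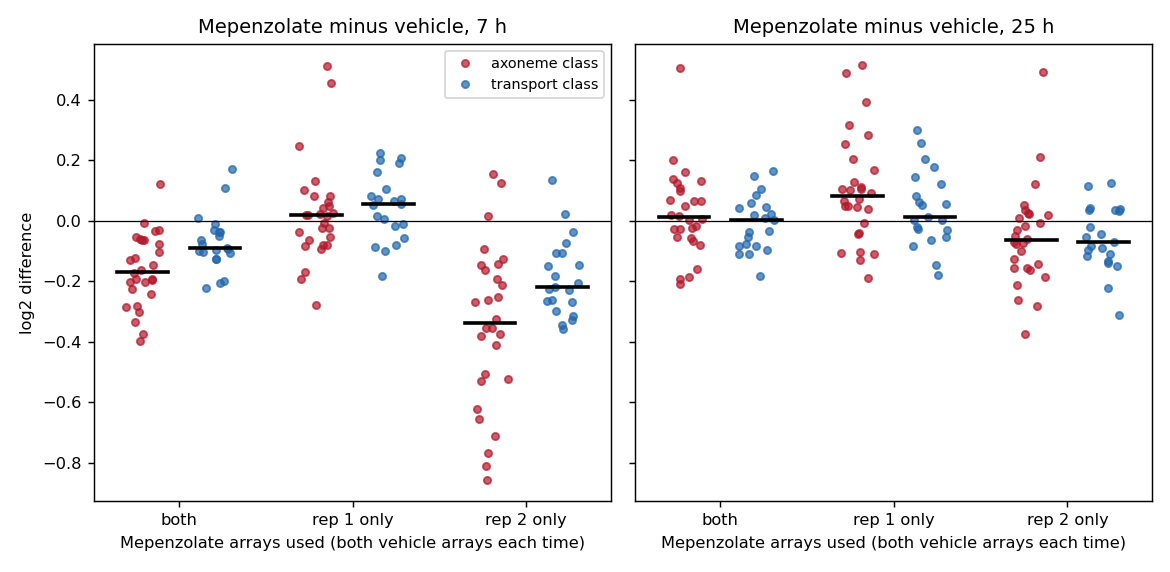
Points are mepenzolate minus vehicle log2 differences of the tested cilium genes, with both mepenzolate arrays or with 1 of them, always against both vehicle arrays; bars are medians. At 7 h the axoneme bar stands at -0.17 with both arrays, 0.017 with the first alone and -0.34 with the second alone.

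The median of a list of club and secretory cell markers was low on the same array, though not every marker was. Of 20 club and secretory cell markers, 19 were tested. At 7 h 16 of 19 were lower in mepenzolate lungs, with a median of -0.51, beside 56.4% of all genes lower. Their median stood at -0.050 and -0.50 on the mepenzolate arrays, against 0.16 and 0.14 on the vehicle arrays, relative to each gene's mean. Their summed linear signal was 46322 and 40389 in mepenzolate lungs, against 49863 and 50834 in vehicle lungs, and over the 4 arrays at 25 h it was 46165 and 48278 in mepenzolate lungs, against 47662 and 43617 in vehicle lungs. The untested marker was Muc16, at a mean of 5.51. The median difference of the club list was -0.28 without the second mepenzolate array. Both mepenzolate arrays at 7 h lay below both vehicle arrays for 13 of 19 club markers, beside 15.5% of all genes. At a limma unadjusted p under 0.05, 9 of 19 were lower in mepenzolate lungs, beside 1.65% of all genes, and 0 passed adjustment. Scgb1a1, the club cell secretoglobin, had 13.26 and 13.30 in mepenzolate lungs, against 13.23 and 13.28 in vehicle lungs, so it was not low there. Cyp2f2, a cytochrome P450 of club cells, had 13.11 and 13.04 in mepenzolate lungs, against 13.14 and 13.15 in vehicle lungs. Other airway lists ran the other way: the 6 basal cell markers stood at medians of -0.10 and 0.14 on the mepenzolate arrays, against -0.096 and 0.080 on the vehicle arrays, and 4 of 6 were highest on the second mepenzolate array. The 7 tested of 13 airway cartilage markers stood at -0.15 and 0.10 on the mepenzolate arrays, against -0.089 and 0.047 on the vehicle arrays.

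Most tested liver markers were high on the array where the cilium genes were low: 4 of 5 had their highest value there and 1 its lowest. The median of the 5 tested of 10 liver markers stood at -0.19 and 0.59 on the mepenzolate arrays at 7 h, against -0.21 and 0.011 on the vehicle arrays. Alb, the albumin gene, was picked after its values were seen and had 6.24 and 8.93 in mepenzolate lungs, against 6.09 and 6.24 in vehicle lungs. The summed liver signal, most of it from Trf, was 3451 and 3691 in mepenzolate lungs, against 3170 and 3805 in vehicle lungs. Markers of alveolar type 2 cells had medians between -0.044 and 0.042 on all 8 arrays. Cardiac muscle markers were lower in mepenzolate lungs at 7 h in 10 of 11 cases (median -0.23), beside 56.4% of all genes. Endothelial markers were lower in 5 of 10 cases (median -0.020) and alveolar type 1 markers in 3 of 10 (median 0.044). The part of these cell types in the low cilium values was not tested. Of 10 testis germ cell markers, given because several of the genes above are known from sperm, 3 were above the level limit, and Prm2, a protamine gene, had 6.75 and 6.97 in mepenzolate and 6.69 and 6.82 in vehicle lungs.

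At 25 h the cilium genes showed no common direction. Axoneme genes were higher in mepenzolate lungs in 16 of 28 cases (median 0.011) and transport genes in 11 of 21 cases (median 0.0021), beside 41.3% of all genes (median -0.023). Limma called 0 of the 49 genes and 0 of 14953 genes (0%) after adjustment, and 0 of the 49 had an unadjusted p under 0.05, beside 4.01% of all genes. Both mepenzolate arrays were above both vehicle arrays for 2 axoneme genes and 1 transport gene, beside 14.2% of all genes. Both were below for 5 axoneme and 3 transport genes, beside 22.4%. The axoneme median was -0.065 without the first mepenzolate array, where 19 of 28 differences were below 0 beside 60.1% of all genes, and -0.075 without the second vehicle array, with 19 of 28 below 0 beside 57% of all genes.

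The largest 25 h value was that of the spoke head gene Rsph1, with 8.55 and 8.52 in mepenzolate lungs, against 8.15 and 7.91 in vehicle lungs. Its difference was 0.50 ± 0.35, and the groups did not overlap, but its 95% interval ran from -0.31 to 1.31. Dnah12, the other axoneme gene above in both arrays, had 8.30 and 8.29 in mepenzolate lungs, against 8.25 and 8.10 in vehicle lungs. Dnah5 had 8.59 and 8.20 in mepenzolate lungs, against 8.35 and 8.05 in vehicle lungs (0.20 ± 0.23), and Rsph4a had 8.93 and 8.23 in mepenzolate lungs, against 8.70 and 8.19 in vehicle lungs. For Dnah5 and Rsph4a the 2 arrays of each group differed by more than the group means.

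Of the genes below in both arrays at 25 h, Dnah11 had 7.11 and 6.93 in mepenzolate lungs, against 7.23 and 7.18 in vehicle lungs (-0.19 ± 0.10). Tekt5 had 8.66 and 8.33 in mepenzolate lungs, against 8.74 and 8.67 in vehicle lungs (-0.21 ± 0.12), and Tekt2 had 6.90 and 6.75 in mepenzolate lungs, against 7.07 and 6.95 in vehicle lungs (-0.19 ± 0.16). The other axoneme genes of this kind were Dnah17 (-0.16 ± 0.12) and Rsph14 (-0.080 ± 0.14). In the transport class, Ift52 had 8.38 and 8.36 in mepenzolate lungs, against 8.50 and 8.43 in vehicle lungs, and was below in both arrays at 25 h as at 7 h. Bbs4 had the smallest p of the class, with 7.25 and 6.98 in mepenzolate lungs, against 6.996 and 6.89 in vehicle lungs (0.17 ± 0.10, limma unadjusted p = 0.145). Ift46 had 9.04 and 8.78 in mepenzolate lungs, against 9.17 and 9.01 in vehicle lungs (-0.18 ± 0.15), and Ift88 had 7.87 and 7.65 in mepenzolate lungs, against 7.68 and 7.55 in vehicle lungs (0.15 ± 0.13). These last 3 genes overlapped between the groups.

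The difference between the 25 h and the 7 h mepenzolate effect was above 0 for 24 of 28 axoneme genes (median 0.17) and 16 of 21 transport genes (median 0.061), beside 48.3% of all genes. Limma called 0 of the 49 and 0 of 14953 genes (0%), and 0 of the 49 had an unadjusted p under 0.05, beside 2.68% of all genes. The smallest p in the axoneme class was that of Dnah12 (0.52 ± 0.25) and in the transport class that of Bbs10 (-0.28 ± 0.13), which ran the other way. Without the second mepenzolate array at 7 h the axoneme median was 0.012 and the transport median -0.030.

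Time alone, in vehicle lungs at 25 h against 7 h, gave no common direction: 14 of 28 axoneme genes were higher (median -0.014), as were 7 of 21 transport genes (median -0.026), beside 49.9% of all genes. Limma called 13 genes (0.0869%), 0 of them cilium genes. Bbs10 was higher at 25 h by 0.22 ± 0.090 in vehicle lungs, with a limma unadjusted p of 0.0432, and was the 1 gene of the 49 at that level, beside 2.71% of all genes. Both 25 h arrays were above both 7 h arrays for 1 axoneme and 2 transport genes, beside 20.9% of all genes, and below for 6 axoneme and 5 transport genes, beside 22.2%. Dnali1 had 8.59 and 8.37 at 25 h in vehicle lungs, against 8.70 and 8.71 at 7 h, and Dnah8 had 7.58 and 7.17 at 25 h, against 7.60 and 7.61 at 7 h.

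In mepenzolate lungs, 23 of 28 axoneme genes were higher at 25 h than at 7 h (median 0.15), as were 15 of 21 transport genes (median 0.057), beside 47.9% of all genes. Limma called 4 genes (0.0268%), 0 of them cilium genes. At an unadjusted p under 0.05 Dnah1 (0.25 ± 0.10) and Bbs2 (0.27 ± 0.10) were higher at 25 h, beside 3.28% of all genes. Dnah1 had 7.02 and 6.92 at 25 h in mepenzolate lungs, against 6.84 and 6.60 at 7 h, and Bbs2 had 7.73 and 7.79 at 25 h in mepenzolate lungs, against 7.58 and 7.40 at 7 h. Both 25 h arrays were above both 7 h arrays for 4 axoneme and 2 transport genes, beside 12.5% of all genes, and below for 0 axoneme and 2 transport genes, beside 15.2%. Without the second 7 h array the medians were -0.042 for axoneme and -0.081 for transport genes. The mepenzolate and time comparisons share arrays, so their values are not independent of each other.

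Dnah3 is covered by 33 probe sets, which gave a view of one axoneme transcript from many places. At 7 h all 33 were lower in mepenzolate lungs, with a median of -0.26 and a range from -0.60 to -0.069. All 33 were lower on the second than on the first mepenzolate array, by a median of -0.61, and relative to each probe set's mean their median stood at 0.17 and -0.47 on the mepenzolate arrays, against 0.10 and 0.19 on the vehicle arrays. At 25 h 30 of 33 were higher in mepenzolate lungs, with a median of 0.20. On those arrays the median stood at 0.16 and 0.053 in mepenzolate lungs, against -0.091 and -0.12 in vehicle lungs. The brightest probe set, from which Dnah3 was read above, was one of the 3 that were lower at 25 h (-0.026). Probe sets of 1 gene share the RNA and are not replicates.

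**Figure D5:**
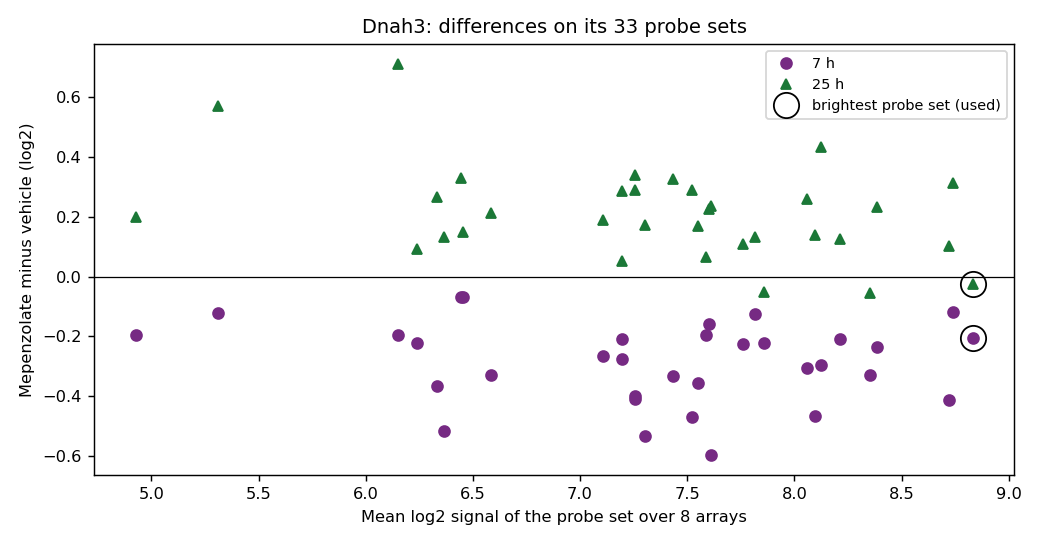
Each probe set of Dnah3 is a circle for the mepenzolate minus vehicle difference at 7 h and a triangle for 25 h, against its mean log2 signal over the 8 arrays; the ringed probe set is the brightest. All 33 circles lie below 0, and 30 of 33 triangles lie above 0.

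Other genes of the motile axoneme were low on the same array. Of a list of 50 genes for the central pair, the nexin-dynein links and other axoneme proteins, 42 were tested. At 7 h 38 of 42 were lower in mepenzolate lungs (median -0.18), beside 56.4% of all genes. Without the second mepenzolate array the median of the 42 was 0.072. At 25 h 38 of 42 were higher in mepenzolate lungs (median 0.13), beside 41.3% of all genes. That median was 0.022 without the first mepenzolate array, 0.26 without the second, 0.21 without the first vehicle array and 0.048 without the second. The 25 h effect minus the 7 h effect was above 0 for 41 of 42 (median 0.32), beside 48.3% of all genes. Without the second mepenzolate array at 7 h the median of the 42 was 0.070. For that difference of effects 1 of 42 had an unadjusted p under 0.05 above 0, beside 1.42% of all genes: Cdhr3, a cadherin-related gene of ciliated cells, picked for its value (0.73 ± 0.28). None of these genes was called by limma after adjustment in these comparisons (0 of 42), and 1 had an unadjusted p under 0.05 at 25 h, higher in mepenzolate lungs, beside 1.54% of all genes. It was the dynein light chain gene Dnal1 (0.42 ± 0.18), with 7.66 and 7.27 in mepenzolate lungs, against 7.09 and 6.99 in vehicle lungs.

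The 3 genes with the highest signal on that list were Tppp3, which binds tubulin, at 11.74 and 11.35 in mepenzolate lungs at 25 h, against 11.60 and 11.37 in vehicle lungs, Tuba1a and Spata18. Tuba1a, an alpha-tubulin made in many cell types, had 11.45 and 11.36 in mepenzolate lungs at 7 h, against 11.29 and 11.32 in vehicle lungs, so the second array was not low. Spata18 had 9.23 and 8.59 in mepenzolate lungs at 7 h, against 9.14 and 9.11 in vehicle lungs.

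Genes that assemble and dock dynein arms were lower in 10 of 10 tested cases at 7 h (15 listed, median -0.11), beside 56.4% of all genes. Their median was -0.0020 without the second mepenzolate array. Dnaaf1, a dynein assembly factor, had 7.32 and 7.27 in mepenzolate lungs, against 7.21 and 7.49 in vehicle lungs. Further transport, BBSome and transition zone genes were lower in 25 of 33 tested cases (40 listed, median -0.059), beside the same 56.4%. Their median was 0.026 without the second mepenzolate array. Arl2bp, which binds the small GTPase ARL2, had 10.84 and 10.86 in mepenzolate lungs, against 10.96 and 10.90 in vehicle lungs.

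A list of ciliogenesis regulators and centriole genes, not all of which turn ciliogenesis on, was lower in 9 of 14 tested cases at 7 h. It had 15 genes listed and a median of -0.019, and 56.4% of all genes were lower. Rfx2, a factor that binds the X-box, had 7.94 and 8.003 in mepenzolate lungs, against 8.06 and 8.15 in vehicle lungs. In vehicle lungs 13 of 14 genes of that list were higher at 25 h than at 7 h (median 0.11), beside 49.9% of all genes. There 8 of 8 tested proliferation markers were higher too (median 0.34). In mepenzolate lungs 10 of 14 (median 0.034) and 8 of 8 (median 0.11) were higher at 25 h, beside 47.9% of all genes. Several of the listed genes, such as Plk4 and Cep152, also serve centriole duplication in dividing cells. The part of dividing cells in these differences was not tested. After adjustment 0 genes of these lists were called by limma in any of the 5 comparisons.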

How the data were processed

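RNA from 8 mouse lung samples was read on Affymetrix gene arrays, 1 array a sample, after cDNA labelling, per the labels' protocols. The deposited values are log2 signals made by the authors with RMA, per the submitters' processing notes, which give no version. That method sets all arrays to 1 distribution of probe signals, so differences are relative to the other genes. No depth applies: the number of arrays limits the precision.

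Of 34760 probe sets, 21640 carried 1 gene symbol, 1321 several and 11799 none; only the first kind was used, giving 19937 genes, each read from its probe set with the highest mean. All 53 cilium genes matched RefSeq by gene ID, with 0 symbols changed. Genes under the 25th percentile of mean signal (log2 5.93) were left out of tests. Limma 3.58.1 in R 4.3.3 fitted 1 mean a group to all 8 arrays, so each comparison shares 1 spread (4 residual and 4.09 prior degrees of freedom), with Benjamini-Hochberg adjustment over 14953 genes at 0.05. An exact permutation test of 2 arrays against 2 cannot go below p = 0.333, so none was used. Errors given as ± are limma standard errors of a difference, with n = 2 arrays a group. The fit was checked on simulated data.

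The members, lists and tests were chosen with earlier results of these data known. Named were Foxj1, Ccdc39 and Ccdc40 and the 4 members of each family with the highest signal. The members with the smallest p in each class and comparison and those at the level limit were also named. The rule also named the 3 genes of highest signal of each other list, but only some of these are printed. The remaining members were added so that each is accounted for, after their values were seen. So were Alb, Dnal1, Cdhr3, Plk4, Cep152 and Sftpc where the rule did not name them. Alternatives tried were no filter or a filter at the 50th percentile, the mean of a gene's probe sets, quantile normalization, median centring of arrays, a trended robust fit, array weights, fits on the groups compared alone, a replicate block and leaving out each array. Leaving out arrays for the lists was chosen after seeing the data.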

Additional observations from a re-analysis of the deposited data

How the results depend on the processing

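No cilium gene was called by limma under any alternative (0 of the members tested), and of 786 values of named genes under alternatives that kept all arrays 7 changed sign. Over all genes, calls between 25 h and 7 h numbered 13 in vehicle lungs, but 7 after quantile normalization, 33 with an intensity trend and robust estimation and 55 with array weights. In mepenzolate lungs they numbered 4, but 1 with no filter on dim genes, 1 with only the groups compared, 0 after quantile normalization and 0 with array weights; the cause was not tested. With the replicate block, calls were 1 for mepenzolate at 25 h, 17 for time in vehicle and 9 for time in mepenzolate lungs. Deviations of arrays with the same number correlated at 0.330 between mepenzolate and vehicle at 7 h. They correlated at 0.396 between mepenzolate at 7 h and 25 h, and at 0.194 between vehicle at 7 h and mepenzolate at 25 h. With vehicle at 25 h the correlations lay between -0.021 and 0.027. The labels state no pairing, so the main fit has no replicate block, and whether the numbers mark a shared batch was not tested.

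Leaving out 1 array at a time, which changed the sign of 70 of 384 values of named genes, leaves 1 group with a single array that is assumed to vary like the others. Calls over all genes then ran from 0 to 2 for mepenzolate at 7 h, 0 to 1 at 25 h, 0 to 2 for the difference of these effects, 0 to 1 for time in vehicle and 0 to 2 for time in mepenzolate lungs. For mepenzolate at 7 h the axoneme median ran from -0.34 to 0.017, the transport median from -0.22 to 0.056 and their difference from -0.17 to -0.039. For the difference of effects these were 0.012 to 0.33, -0.030 to 0.19 and 0.019 to 0.17. For time in mepenzolate lungs they were -0.042 to 0.32, -0.081 to 0.18 and 0.039 to 0.18, and for time in vehicle lungs the axoneme minus transport difference ran from -0.071 to 0.092. At 7 h Ccdc39 ran from -0.81 to 0.063, Dnah5 from -0.66 to 0.082, Dnali1 from -0.62 to 0.018, Rsph4a from -0.77 to 0.0997 and Tekt2 from -0.51 to 0.023. The higher end at 7 h, for both medians and these 5 genes, came without the second mepenzolate array.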
